A study of Arabidopsis thaliana with 20 samples.

Results

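Of the 22746 probe sets on the array that are not controls, 31 (0.136%) gave a clearly higher signal in the ckh2 mutant than in wild type and no comparable mean excess in the ckh1 mutant. They were chosen by their values: the log2 ratio of ckh2 to wild type, after adding 30 to each signal, was at least 0.8 in all 6 pairs of arrays matched by kinetin level and replicate, and the mean of the 6 matching ckh1 ratios was below 0.4. The array's name table gives exactly 1 gene for 17 of the 31 and none for 14, which are called by their probe set names.

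CKH2 is the gene PKL (PICKLE), which encodes a chromatin remodelling ATPase of the CHD3 class, and CKH1 is EER4, which encodes a TAF12-type subunit of the general transcription machinery. Loss of PICKLE is known to leave genes expressed that are normally silenced as the seedling develops, embryo genes in particular. Histone deacetylases remove acetyl groups from histones, which goes with lower transcription, and trichostatin A (TSA) inhibits them. The gene families named in the text are given as general background on these loci.

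The 20 arrays held RNA from hypocotyl segments of Arabidopsis thaliana, 2 arrays for each of 10 groups. Seedlings had grown for 10 days in dim light, and the segments were then kept for 3 days on callus induction medium, so that every group received the auxin 2,4-D at 100 ng/ml. Segments of the wild type Ler and of the mutants ckh1-1 and ckh2-1 each had 0, 25 or 200 ng/ml of the cytokinin kinetin, and 1 further wild type group had TSA at 100 ng/ml and no kinetin. Each mutant is represented by 1 allele, and no segments of either mutant were given TSA. The study asked how CKH1 and CKH2 affect cytokinin responses in tissue culture.

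The values are MAS5 signals, a probe set's brightness on a linear scale. Median signals per array ran from 92.6 to 137. All arrays of replicate 1 were scaled to a trimmed mean of 310.9 and all of replicate 2 to 236.9, so signals are quoted as deposited, with replicate 1 before replicate 2, and tests were made after bringing all arrays to 1 common trimmed mean. Nothing in the labels says that replicates were separate cultures, so the p-values cover the spread of these arrays alone, which may be technical. The name table holds no probe set for PKL or EER4, so the mutated genes themselves could not be read. Segments hold several cell types, and more cells of a type cannot be told apart from more RNA per cell.

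**Figure D1:**
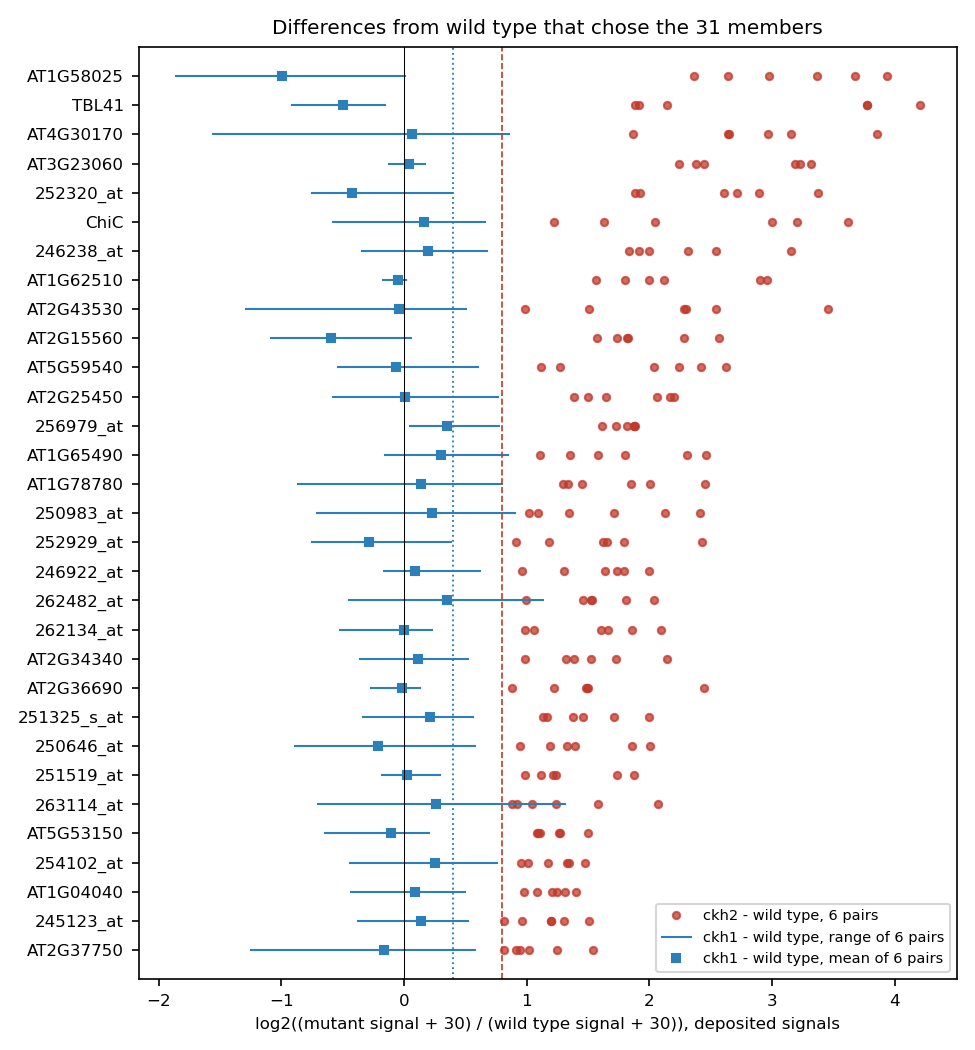
The horizontal axis is the log2 ratio of mutant to wild type signal, each plus 30, for the 31 members ordered by their mean in ckh2. Red points are the 6 ckh2 pairs, the blue square and line are the mean and range of the 6 ckh1 pairs, and the dashed and dotted lines are the limits of 0.8 for each ckh2 pair and 0.4 for the ckh1 mean. The ckh2 means run from 1.08 to 3.16, and the ckh1 means from -0.995 to 0.35.

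In ckh2 the mean log2 ratio of the members ran from 1.08 to 3.16 with a median of 1.62, and 9 members had a mean of at least 2. These ratios and the ckh1 ratios chose the members and are described without a test. After scaling, all 6 ckh2 arrays lay above all 6 wild type arrays for 30 of the 31, against 3.46% of all probe sets tested, a difference that the choice of members fixes. By limma, 10.7% of the probe sets tested were higher in ckh2 over the 3 kinetin levels. The rule sets only an upper limit on the mean in ckh1, and there 12 members had a mean below 0, with a median over members of 0.04. Single ckh1 pairs could lie well above that limit. The highest pair was 1.31 for 263114_at and 1.13 for 262482_at, whose ckh2 means were 1.29 and 1.56. For 256979_at all 6 ckh1 pairs lay above wild type, from 0.05 to 0.77, with a mean of 0.35 beside 1.80 in ckh2. By limma 9.33% of all probe sets tested were higher and 12.1% lower in ckh1.

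Among the members with products linked to the nucleus or to protein turnover, AT1G58025, which encodes a bromodomain protein, had the largest difference. Its wild type signals over the 6 arrays with 0, 25 or 200 ng/ml kinetin ran from 45.7 to 153 with a median of 84.8, those of ckh1 from 5.83 to 96.3 with a median of 31.3, and those of ckh2 from 913 to 1132 with a median of 1065. The ckh2 arrays were far apart from all others and close to each other, with a mean log2 ratio to wild type of 3.16 ± 0.61 (SD over 6 pairs), while ckh1 lay at -0.995 ± 0.83, on the other side of wild type. AT3G23060, a gene of the RING/U-box superfamily, had signals from 28.2 to 47.6 (median 31.2) in wild type, from 26.3 to 50.4 (median 35.5) in ckh1 and from 259 to 698 (median 428) in ckh2. Its wild type and ckh1 arrays covered the same range, with a ckh1 ratio of 0.04 ± 0.10, and the ckh2 ratio was 2.80 ± 0.49. AT5G53150, which encodes a DnaJ domain protein, was bright in all groups, from 204 to 273 (median 246) in wild type, from 146 to 276 (median 228) in ckh1 and from 494 to 642 (median 624) in ckh2. Its excess of 1.22 ± 0.16 was small but varied little between pairs.

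Products that act in the cell wall or are secreted made up another part of the named members. TBL41 belongs to the TRICHOME BIREFRINGENCE-LIKE family, whose known members acetylate wall polysaccharides. Its signals ran from 14.9 to 63.1 (median 31.1) in wild type, from 2.80 to 32.6 (median 14.7) in ckh1 and from 155 to 1084 (median 483) in ckh2. The ckh2 arrays did not overlap the others but spanned a wide range among themselves, and the ratio was 2.95 ± 1.08. AT4G30170, a class III peroxidase gene, ran from 8.52 to 75.4 (median 41.7) in wild type, from 5.87 to 94.2 (median 51.9) in ckh1 and from 271 to 804 (median 419) in ckh2. Here wild type and ckh1 overlapped fully and ckh2 stood apart, with a ratio of 2.86 ± 0.66. ChiC, a class V chitinase, ran from 55.6 to 199 (median 74.2) in wild type, from 37.9 to 225 (median 99.7) in ckh1 and from 206 to 1801 (median 603) in ckh2. As deposited, the lowest ckh2 array of ChiC lay between the highest arrays of wild type and ckh1, so the ranges met.

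AT1G62510, of the lipid transfer protein and protease inhibitor superfamily, was near 0 outside ckh2. Its wild type signals were 2.46 to 6.86 (median 3.12), those of ckh1 2.63 to 3.3 (median 3.11) and those of ckh2 78.5 to 229 (median 107). With signals this low the ratio of 2.22 ± 0.58 depends on the added 30. AT2G43530, a defensin-like gene of a trypsin inhibitor group, ran from 38.7 to 249 (median 85.5) in wild type and from 262 to 898 (median 581) in ckh2, and its wild type array of replicate 2 at 25 ng/ml was the one close to the ckh2 range. AT1G78780, of a pathogenesis-related family, ran from 71.2 to 104 (median 77.1) in wild type, from 36.0 to 160 (median 99.8) in ckh1 and from 220 to 544 (median 340) in ckh2.

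Among the enzymes, 3 members encode dioxygenases of the 2-oxoglutarate and iron dependent superfamily. AT2G25450, whose product hydroxylates an alkenyl glucosinolate, had signals of 12.6 to 38.3 (median 20.3) in wild type, 4.86 to 49.7 (median 25.6) in ckh1 and 103 to 276 (median 136) in ckh2. AT5G59540 had 78.6 to 169 (median 104) in wild type, 68.4 to 144 (median 113) in ckh1 and 316 to 753 (median 517) in ckh2. AT2G36690 had 31.2 to 62.3 (median 43.7) in wild type, 36.9 to 49.9 (median 42.7) in ckh1 and 82.9 to 402 (median 164) in ckh2. In all 3 the ckh2 arrays lay above every wild type and ckh1 array, which the choice of members favours. The mean ratios were 1.83 for AT2G25450, 1.95 for AT5G59540 and 1.51 for AT2G36690. AT1G04040, of the acid phosphatase family with a HAD-type fold, was the brightest named member, at 437 to 1813 (median 908) in wild type and 890 to 3877 (median 2233) in ckh2. Its groups overlapped across kinetin levels and separated only within them, with pair ratios between 0.98 and 1.40.

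The remaining named members have no role stated here. AT2G15560 had a ratio of 1.97 ± 0.38 in ckh2 and of -0.60 ± 0.40 in ckh1. AT1G65490 and AT2G34340 had ckh2 ratios of 1.77 ± 0.53 and 1.52 ± 0.39. AT2G37750, at 1.08 ± 0.27, had the smallest mean of all. The 14 members without a gene name had mean ckh2 ratios from 1.16 to 2.57. The largest was 252320_at, at 152 to 304 (median 177) in wild type and 670 to 2360 (median 1185) in ckh2, and the next 246238_at, at 92.8 to 163 (median 126) and 433 to 1220 (median 671).

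Close to the limit, the lowest pair was 0.81 for 245123_at, 0.82 for AT2G37750 and 0.88 for 263114_at. Just outside it were PSAN, a photosystem I subunit, with a lowest pair of 0.799, and HCF101 and AT3G18680 with 0.78 each. A further 95 probe sets met the ckh2 limit but had a ckh1 mean of 0.4 or more, the nearest being 262557_at at 0.43, while the highest ckh1 mean among the members was 0.35, at 262482_at. The 31 members are thus 24.6% of the 126 probe sets (0.554% of all) higher in ckh2 in all pairs.

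**Figure D2:**
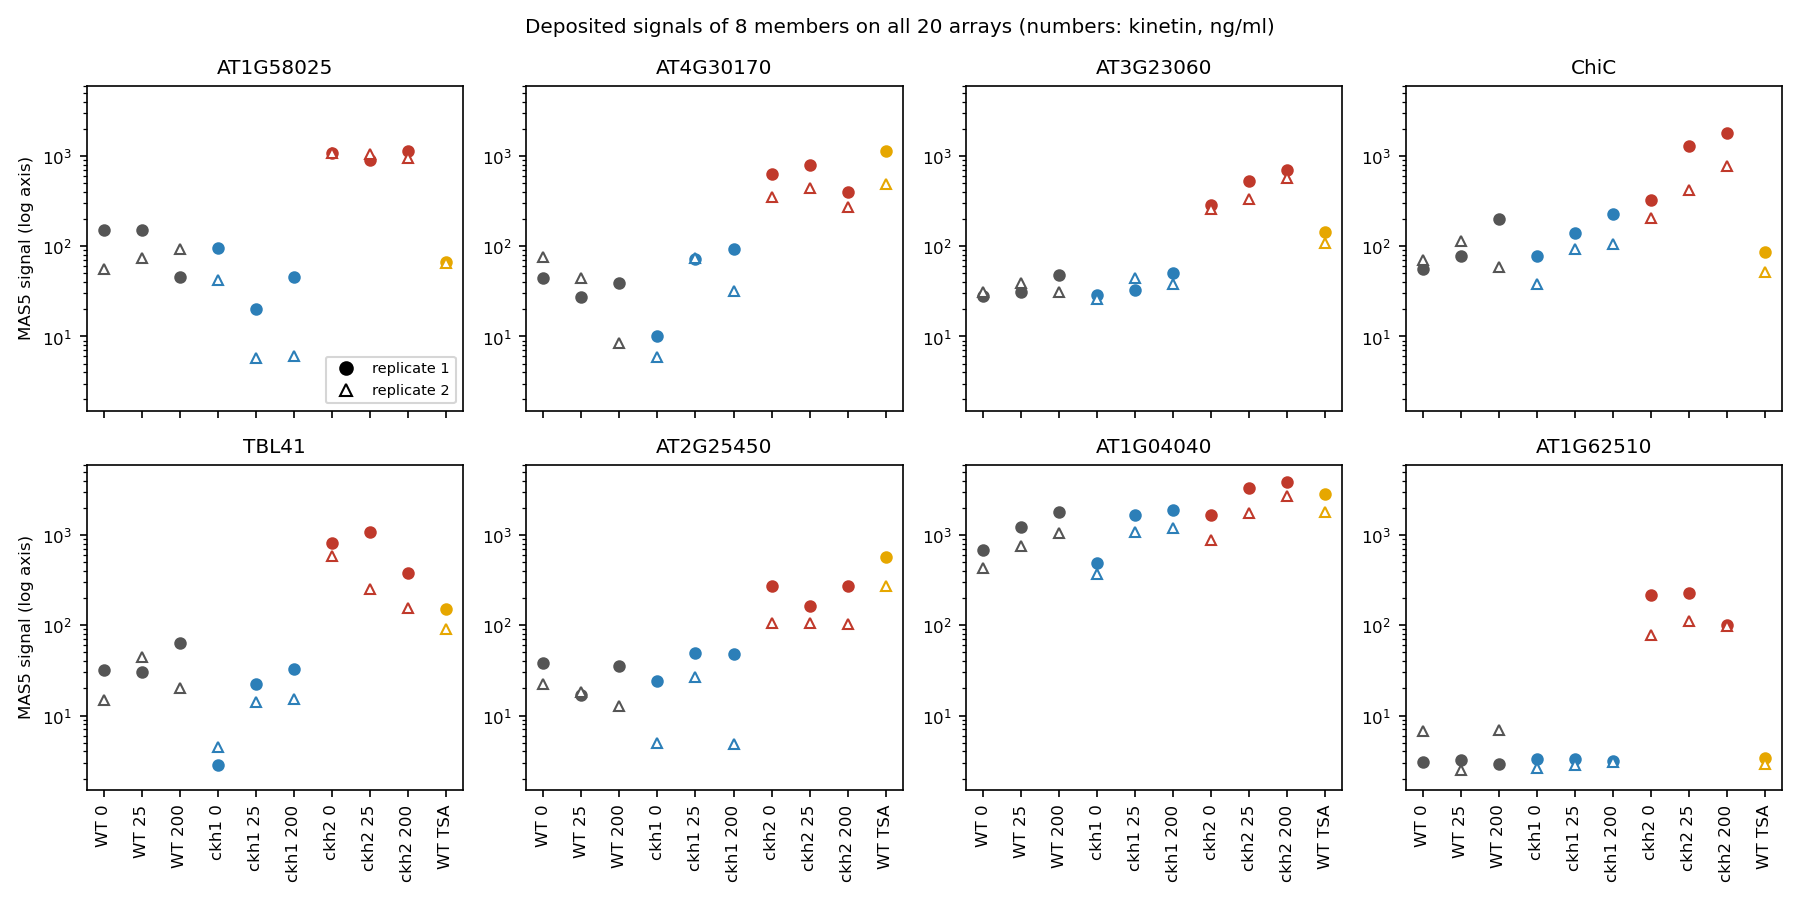
Deposited MAS5 signals of 8 members are drawn on a log axis for each of the 20 arrays, circles for replicate 1 and triangles for replicate 2, with the group on the horizontal axis (WT is wild type, numbers are kinetin in ng/ml). In AT1G58025 the ckh2 arrays lie between 913 and 1132 at every kinetin level and the TSA arrays at 67.7 and 66.1, among those of wild type. In AT4G30170 and AT2G25450 the TSA array of replicate 1 lies above all ckh2 arrays. That of replicate 2, at 495 and 270, lies within their range.

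Within ckh2, kinetin at 200 ng/ml raised 9 of the 31 members (29.0%) and lowered 3 (9.68%) by limma with Benjamini-Hochberg adjustment over all probe sets, against 9.8% higher and 11.0% lower among all probe sets tested. The share that fell was near that of all probe sets. The kinetin comparisons use arrays that also chose the members. The median log2 change of the members was 0.46, that of all probe sets -0.03. ChiC had ckh2 signals of 323 and 206 without kinetin, 1290 and 421 at 25 ng/ml, and 1801 and 785 at 200 ng/ml, and rose by 2.08 ± 0.40 (SE, adjusted p = 0.00134). AT3G23060 had 287 and 259 without kinetin, 525 and 331 at 25 ng/ml, and 698 and 577 at 200 ng/ml, and rose by 1.13 ± 0.18 (adjusted p = 0.000338). In both genes each replicate was higher at each step of kinetin. AT1G04040 rose by 1.39 ± 0.20 (adjusted p = 0.000117), AT2G34340 by 0.66 ± 0.20 (adjusted p = 0.0301), and the other members that rose were 5 probe sets without a name, by 0.65 to 1.18. One of these, 251519_at, passed the filter on low values only through ckh2 at 200 ng/ml, so the filter favours its rise.

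The members that fell in ckh2 with 200 ng/ml kinetin were TBL41, AT2G36690 and 252320_at. TBL41 had signals of 818 and 585 without kinetin and 382 and 155 at 200 ng/ml, and its change was -1.39 ± 0.39 (limma adjusted p = 0.018). AT2G36690 went from 228 and 176 to 144 and 82.9, a change of -0.72 ± 0.22 (adjusted p = 0.0265), in a gene that passed the filter only through the ckh2 groups, and 252320_at had a change of -0.82 ± 0.26 (adjusted p = 0.0327). All 3 remained above every wild type array at 200 ng/ml after these falls, which the choice of members all but fixes. The calls of ChiC, AT3G23060 and AT1G04040 held under every alternative, while those of TBL41 (highest adjusted p = 0.184), AT2G36690 (0.21) and AT2G34340 (0.315) were lost without either ckh2 array without kinetin, without replicate 2 at 200 ng/ml for TBL41 and AT2G36690 and replicate 1 for AT2G34340, and with signals as deposited. The count of 12 fell to 4 and 7 when the untreated ckh2 arrays 1 and 2 were left out in turn, and to 7 when array 2 at 200 ng/ml was.

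In wild type the same dose raised only AT1G04040 of the 31, by 1.30 ± 0.20 (limma adjusted p = 0.000605), from 681 and 437 to 1813 and 1065, against 4.49% of all probe sets higher and 4.43% lower. Its call was lost with signals as deposited (adjusted p = 0.101), and the count was 3 when wild type array 2 at 200 ng/ml was left out. The response to 200 ng/ml in ckh2 minus that in wild type is made of the ratios that chose the members, so its values are a description. By limma 0 of 31 members passed, beside 0.441% higher and 0.881% lower among all probe sets. As those ratios chose the members, this count is not a test of them, and no member is said to differ. The difference was 1.5 ± 0.56 for ChiC, 0.94 ± 0.26 for AT3G23060 and -1.76 ± 0.55 for TBL41. By level, the median ckh2 ratio was 1.5 without kinetin, 1.71 at 25 ng/ml and 1.88 at 200 ng/ml, as chosen by the rule.

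In ckh1, where the members were not higher on average, 11 rose and 1 fell at 200 ng/ml, against 12.5% and 15.6% of all probe sets. AT1G04040 went from 496 and 376 to 1917 and 1203, a rise of 1.75 ± 0.20 (limma adjusted p = 8.9e-06). AT1G78780 went from 70.7 and 36.0 to 160 and 130, a rise of 1.11 ± 0.23 (adjusted p = 0.002). Both calls held under all alternatives. AT4G30170, from 10.2 and 5.87 to 94.2 and 32.2, rose by 1.2 ± 0.33 (adjusted p = 0.0137), AT2G43530 by 1.25 ± 0.42 and ChiC by 1.13 ± 0.40, and AT5G53150 fell by 0.54 ± 0.18. These 4 calls were lost with signals as deposited and without at least 3 of the 4 ckh1 arrays, with highest adjusted p of 0.163 for AT4G30170, 0.156 for AT2G43530, 0.261 for ChiC and 0.2 for AT5G53150. Of the 11 that rose, 4 rose in ckh2 too (36.4%): ChiC, AT1G04040, 251325_s_at and 254102_at. Among all probe sets that rose in ckh1 this share was 52.1%. The count of 12 was 6 without replicate 1 of ckh1 without kinetin and 7 without replicate 2 at 200 ng/ml.

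At 25 ng/ml 7 members rose and 0 fell in ckh1 (4.42% and 3.1% of all probe sets), 1 rose and 0 fell in ckh2 (0.661% and 0.0389%) and 0 of 31 in wild type by limma (3 at an unadjusted p below 0.05, against 4.48% of all probe sets, and 1 adjusted with the replicate block; 0.013% of all probe sets higher and 0.0% lower). In ckh1 AT1G04040 rose by 1.58 ± 0.20 (adjusted p = 0.000162) and AT4G30170 by 1.46 ± 0.33 (adjusted p = 0.0131), beside 5 probe sets without a name. AT1G04040 was the 1 that rose in ckh2, by 0.98 ± 0.20 (adjusted p = 0.0345), and this call was lost when untreated ckh2 array 2 or array 1 at 25 ng/ml was left out (adjusted p = 0.398 and 0.381), with signals as deposited (adjusted p = 1.0) and with no filter (adjusted p = 0.0673). The AT4G30170 call was lost without either ckh1 array without kinetin or replicate 2 at 25 ng/ml (highest adjusted p = 0.126), and with signals as deposited (adjusted p = 0.0811). In ckh1 the count of 7 was 2 without replicate 1 without kinetin or either array at 25 ng/ml, and 4 without replicate 2 without kinetin; in ckh2 it was 0, 0 and 2 without replicate 2 without kinetin and replicates 1 and 2 at 25 ng/ml.

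**Figure D3:**
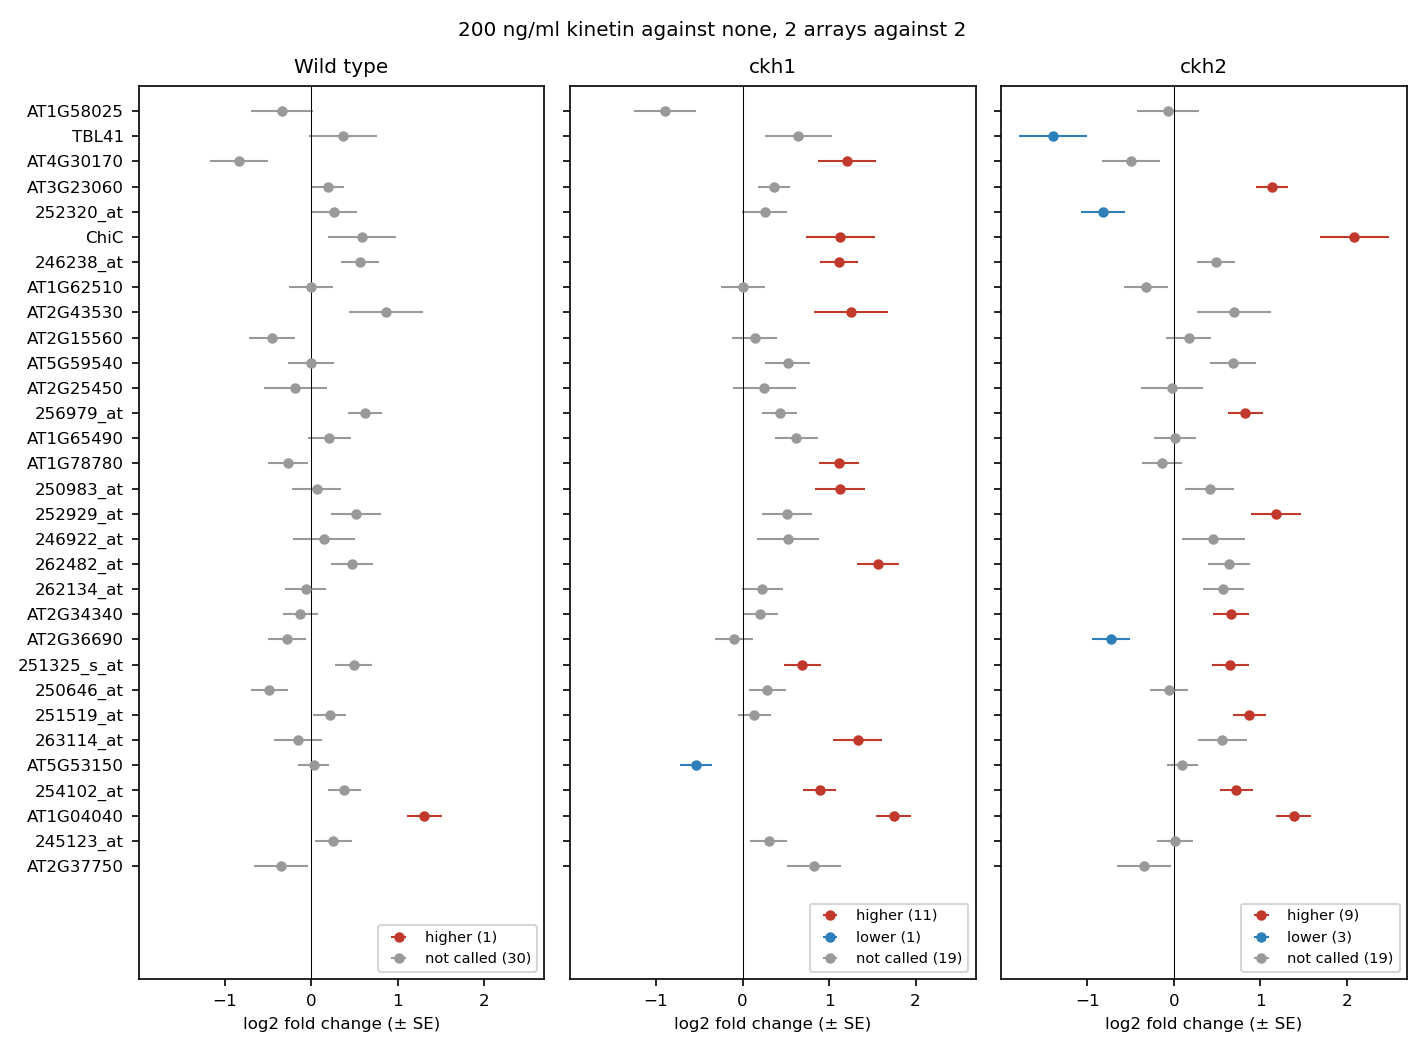
Log2 fold changes with SE for 200 ng/ml kinetin against none are drawn for the 31 members in wild type, ckh1 and ckh2, 2 arrays against 2, coloured by the limma call at an adjusted p below 0.05. In wild type 1 member is called higher, in ckh1 11 higher and 1 lower, and in ckh2 9 higher and 3 lower.

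TSA divided the members. In wild type segments with TSA against none, 15 of the 31 rose and 2 fell by limma, against 13.7% higher and 16.5% lower among all probe sets tested, with a median log2 change of 0.68 beside -0.05 for all. The rule did not use the TSA arrays, but it did use the untreated wild type arrays, and choosing members with low wild type signals favours higher TSA values. Against all 6 wild type arrays with 0, 25 or 200 ng/ml kinetin, both TSA arrays lay above for 15 members (20.3% of all probe sets) and below for 5 (22.4%). The count of 17 called members was 14 to 16 with single arrays left out.

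The rises with TSA were largest in AT4G30170, AT2G25450 and AT2G43530. AT4G30170 had signals of 44.8 and 75.4 without TSA and 1155 and 495 with it, a rise of 3.14 ± 0.33 (limma adjusted p = 7.39e-06). AT2G25450 had 38.3 and 22.2 without and 569 and 270 with TSA (2.84 ± 0.36, adjusted p = 3.79e-05), and AT2G43530 38.7 and 72.9 without and 781 and 410 with TSA (2.81 ± 0.42, adjusted p = 0.000159). For comparison the untreated ckh2 arrays of these genes had 637 and 355, 276 and 106, and 725 and 262. After scaling, both TSA arrays lay above both untreated ckh2 arrays for AT4G30170 and AT2G25450, while for AT2G43530 the TSA and ckh2 arrays overlapped. AT1G04040 rose by 1.99 ± 0.20, AT5G59540 by 1.71 ± 0.26, AT2G34340 by 1.70 ± 0.20, AT2G37750 by 1.47 ± 0.31 and AT3G23060 by 1.38 ± 0.18. TBL41 rose by 1.5 ± 0.39 (adjusted p = 0.00883) to 150 and 91.2, far short of the 818 and 585 of untreated ckh2. The TBL41 call was lost without replicate 2 of untreated wild type (adjusted p = 0.0502) or replicate 1 with TSA (adjusted p = 0.0745), and the 8 other named rises held under every alternative. Over all members, both TSA arrays lay above both untreated ckh2 arrays in 7 (34.6% of all probe sets) and below both in 21 (38.2%) after scaling. The choice of members for high ckh2 signals favours the latter.

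Other members did not follow. AT1G58025 had 151 and 56.7 without and 67.7 and 66.1 with TSA, a change of -0.35 ± 0.36 (limma adjusted p = 0.494), although it had the largest ckh2 excess. AT1G62510 stayed near 0, at 3.03 and 6.77 without and 3.35 and 2.94 with TSA. ChiC (0.05 ± 0.40) and AT5G53150 (-0.17 ± 0.18) did not pass either. AT1G78780 went from 104 and 89.8 to 31.8 and 37.7, a change of -0.97 ± 0.23 (adjusted p = 0.00535), opposite to its excess in ckh2, and 250646_at, with signals of 970 and 725 without and 422 and 299 with TSA, fell by 1.17 ± 0.22 (adjusted p = 0.000826). The AT1G78780 call was lost without replicate 1 with TSA (adjusted p = 0.0726) and with signals as deposited (adjusted p = 0.0695). Of the 3 dioxygenase genes, AT2G25450 and AT5G59540 rose and AT2G36690 did not pass (-0.52 ± 0.22, adjusted p = 0.0866), with TSA arrays of 30.4 and 24.4 below all 6 wild type arrays after scaling.

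**Figure D4:**
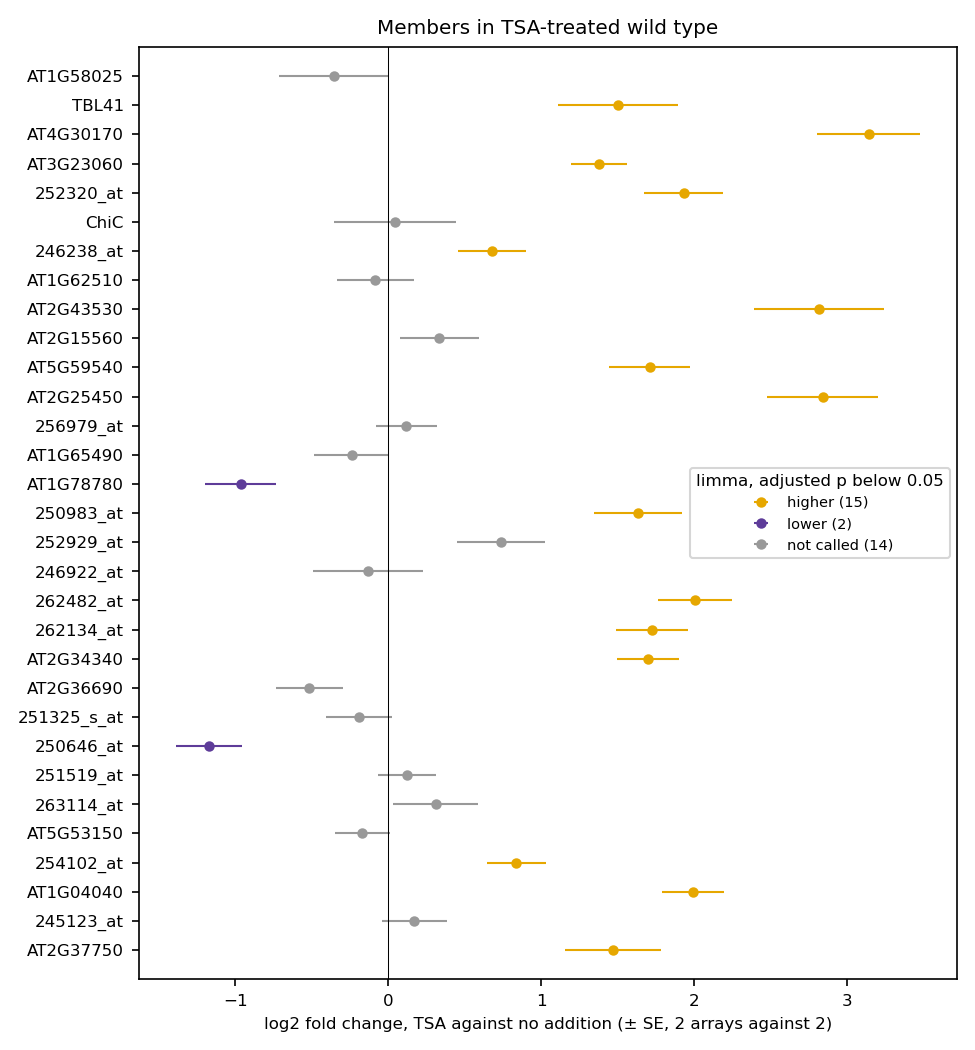
Log2 fold changes with SE for TSA against no addition in wild type, 2 arrays against 2, are drawn for the 31 members in order of their ckh2 ratio, coloured by the limma call. Rises reach 3.14 in AT4G30170, the 2 falls are AT1G78780 and 250646_at, and AT1G58025 at the top lies at -0.35.

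Of the 15 members that rose with TSA, 4 also rose in ckh2 with 200 ng/ml kinetin (26.7%), 2 fell there (13.3%) and 9 did not pass (60.0%). Among all probe sets that rose with TSA these shares were 22.4%, 4.55% and 73.1%. In all, 25 of the 31 passed in at least 1 of 8 comparisons, against 50.8% of all probe sets. The arrays that chose the members enter all 8, so these shares are a description. The 8 include the response in ckh2 minus that in wild type, in which 0 members passed. AT2G36690 and 251519_at are counted only for their changes in ckh2 with 200 ng/ml kinetin, and passed the filter only through ckh2 groups. The 6 that passed in none were AT1G58025, AT1G62510, AT2G15560, AT1G65490, 246922_at and 245123_at, which include the member with the largest ckh2 excess. Of these, AT1G62510 also passed the filter only through ckh2 groups and was near 0 elsewhere, where a fall could not be seen.

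The 95 probe sets that were higher in ckh2 but also in ckh1 can be set beside the members. With TSA, 50 of them (52.6%) rose, beside 15 of the 31 (48.4%). With kinetin, 27 of the 95 (28.4%) rose at 200 ng/ml in wild type beside 1 of the 31 (3.23%), and 73 (76.8%) beside 11 (35.5%) in ckh1. In ckh2 44 (46.3%) rose and 0 fell, beside 9 (29.0%) and 3 (9.68%). These shares are descriptions, since both sets were chosen on the same wild type, ckh1 and ckh2 arrays and the ckh1 limit itself depends on signals with kinetin.

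Gene lists on seed and embryo development, Polycomb-repressed regulators, cytokinin, auxin, gibberellin, defence, flavonoids and chromatin, with cell type markers, held 152 entries, of which none was a member. Few had a named probe set: 2 of 23 embryo genes, 4 of 24 cytokinin genes, 6 of 12 auxin response genes, 2 of 12 gibberellin genes, 1 of 10 flavonoid genes, 1 of 14 defence genes, and none of the Polycomb-repressed regulators or chromatin factors. In ckh2 against wild type over the 3 kinetin levels (10.7% of all probe sets higher, 10.6% lower by limma), BBM, an embryo factor, fell by 0.56 ± 0.15 (adjusted p = 0.0118), while EEL did not pass. BBM was also lower in ckh1, at -0.69 ± 0.15 (adjusted p = 0.0028), and with TSA, at -2.90 ± 0.26 (adjusted p = 1.38e-06). So was EEL, at -0.71 ± 0.15 in ckh1 (adjusted p = 0.00213) and -1.72 ± 0.26 with TSA (adjusted p = 0.000144). With TSA, IAA29 (2.01 ± 0.23), LBD16 (1.11 ± 0.21), GH3.1 (0.95 ± 0.34), GH3.3 (0.86 ± 0.22) and DFR (1.32 ± 0.32) rose. GID1B (-1.06 ± 0.17), GID1A (-0.94 ± 0.26) and UGT76C2 of the cytokinin list (-0.70 ± 0.21) fell, and LBD29 and GH3.5 did not pass. Of the auxin response genes IAA29 (0.73 ± 0.13, adjusted p = 0.000804) and GH3.3 (0.53 ± 0.13, adjusted p = 0.00668) were higher in ckh2 and LBD29 was lower (-1.26 ± 0.21, adjusted p = 0.000358), as it was in ckh1 (-1.77 ± 0.21, adjusted p = 1.51e-05). GH3.1 (-1.06 ± 0.19), GH3.5 (-0.74 ± 0.11) and LBD16 (-0.59 ± 0.12) were lower in ckh1 and did not pass in ckh2. DFR, of anthocyanin synthesis, was higher in ckh2 by 0.93 ± 0.18 (adjusted p = 0.00151), the gibberellin receptor gene GID1B lower, at -0.34 ± 0.10 (adjusted p = 0.0181) and in ckh1 at -0.50 ± 0.10 (adjusted p = 0.00131). None of the 3 cytokinin genes tested passed in ckh2, while UGT76C2 was lower in ckh1 (-0.52 ± 0.12, adjusted p = 0.00541). RCA, the 1 named of 8 markers of photosynthetic cells, was higher in ckh2 by 0.77 ± 0.12 (adjusted p = 0.000196) and rose with TSA by 1.1 ± 0.21 (adjusted p = 0.00104). Its signal ran from 339 to 376 in untreated wild type, from 306 to 371 in untreated ckh1, from 559 to 632 in untreated ckh2 and from 643 to 996 with TSA. At 200 ng/ml kinetin it ran from 473 to 937 in wild type, from 699 to 1078 in ckh1 and from 1058 to 1302 in ckh2. RCA did not pass in ckh1 over the 3 levels (0.34 ± 0.12, adjusted p = 0.0529), and its part in the members' results was not tested. FAMA, of the guard cell lineage, stayed between 13.4 and 45.2 on all arrays, and the xylem, phloem and root markers had no named probe set.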

How the data were processed

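Signal intensities on the linear scale were deposited by the authors in 1 table of 22810 probe sets and 20 arrays and were made with MAS5, per the submitters' processing notes; no version or target level was found in the labels. Control probe sets (64) were not used. The members were found on deposited signals. For tests, arrays were scaled to a common trimmed mean (2% trimmed at each end) of 273.9, since the levels of the 2 replicate numbers differed by 0.39 on the log2 scale, and 15436 probe sets whose mean in at least 1 group passed the 40th percentile of all log2 values (6.61) were kept; all 31 members passed, 3 of them (AT1G62510, AT2G36690 and 251519_at) only through ckh2 groups. Values were log2 of the signal plus 30, so fold changes of dim probe sets are understated. Group means of all 10 groups were fitted with limma 3.58.1 in R 4.3.3 (eBayes with a trend) and p-values adjusted by Benjamini-Hochberg over all probe sets in each comparison, called below 0.05. The fit was also run on simulated data drawn independently for each array, which does not cover deviations that same-numbered arrays share. The members and gene lists were chosen with earlier results of these data known. All members with a gene were named, as the naming rule allows for up to 40, and genes of the lists that passed. Of 13513 probe sets with 1 gene, 13436 matched RefSeq (TAIR10.1). Same-numbered arrays deviated together in many pairs of groups (r over 0.1 in 26 of 45) but not in all. The main fit leaves this pairing out, and a block for the replicate number was an alternative. A planned search of promoters for motifs was not made, as no sequences were used here. Alternatives were signals as deposited, quantile normalization, no filter, a pseudocount of 3, the replicate block, each array left out, and other limits of the rule.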

Additional observations from a re-analysis of the deposited data

How the results depend on the processing

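Of 26 calls of named members, 14 held under every alternative, 12 were lost under at least 1 and 0 changed direction; calls of members without a gene name were followed in the counts alone. With signals as deposited, which leaves the scaling difference in the spread, 0, 7 and 5 members were called at 200 ng/ml kinetin in wild type, ckh1 and ckh2, beside 1, 12 and 12, and 1 and 0 at 25 ng/ml in ckh1 and ckh2, beside 7 and 1. Quantile normalization gave 2 in wild type at 200 ng/ml, and no filter gave 4 and 0 at 25 ng/ml in ckh1 and ckh2. With the replicate block 2 were called in wild type at 200 ng/ml and 1 at 25 ng/ml, and in the other comparisons the block moved no count by over 1.5 times; between groups, deviations of same-numbered arrays correlated with r from -0.12 to 0.63, over 0.1 in 26 of 45 pairs of groups. Counts over all probe sets with signals as deposited were 475, 1692 and 1281 at 200 ng/ml in wild type, ckh1 and ckh2 and 1700 with TSA, beside 1377, 4344, 3218 and 4654. With single arrays left out, which leaves 2 arrays against 1, counts of members ran from 1 to 3, 6 to 8 and 4 to 8 at 200 ng/ml in wild type, ckh1 and ckh2, from 2 to 4 and 0 to 2 at 25 ng/ml in ckh1 and ckh2, and from 14 to 16 with TSA; the genes of the lists called in ckh2 ran from 6 to 8. The number of members was 17 with a limit of 1.0, 60 with 0.6, 45 and 25 with 10 and 100 added to the signal (31 and 17 of the 31 among them), and 42 and 103 from the pairs of replicate 2 or replicate 1 alone (27 and 30 of the 31). Only 2 arrays per group limit the precision, and the table gives no detection call for dim probe sets.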

Other observations

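Of the 17 members with a gene, 6 lie on chromosome 2 (35.3%), against 14.9% of the tested probe sets with 1 gene, as read from their locus tags; the other chromosomes hold 5, 2, 2 and 2. The 14 members without a gene were not placed. Of the 17, AT2G25450 is nearest to the CKH2 locus itself, with 34 protein-coding genes between it and PKL (AT2G25170) in the TAIR10.1 annotation. None of the 17 were neighbours of each other: the closest pair, AT2G36690 and AT2G37750, had 115 genes between them.

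Genes directly beside a member, looked at after the members' values were known, had 9 tested probe sets next to 9 members, and in ckh2 against wild type over the 3 kinetin levels 4 of them were higher and 1 lower by limma, against 10.7% and 10.6% of all probe sets. The largest was AT1G62500, which lies beside AT1G62510 and belongs to the same superfamily. Its signals were 23.0 and 37.9 in untreated wild type, 15.9 and 35.9 in untreated ckh1, 206 and 70.0 in untreated ckh2 and 27.7 and 36.4 with TSA. The excess in ckh2 was 1.41 ± 0.21, and the gene missed the choice of members by its lowest pair, 0.56. AT1G62500 passed the filter on low values only through ckh2 groups. The filter therefore favours this excess and the gene's place among the 4, and its values are a description. AT2G43535, beside AT2G43530 in the same trypsin inhibitor group, went the other way, with 2678 and 2131 in untreated wild type, 964 and 436 in untreated ckh1, 1753 and 707 in untreated ckh2, and a difference of -0.64 ± 0.18 over the 3 levels (adjusted p = 0.0184). Its mean ratio to wild type in ckh1 was -0.90, so it was lower in both mutants. AT1G65500, beside AT1G65490, was higher by 0.64 ± 0.16 (adjusted p = 0.00994), with a mean ratio of 0.92 in ckh1, and AT1G78790 and AT2G36680 by 0.34 ± 0.10 and 0.24 ± 0.08. Whether probe sets of related neighbours share signal was not tested.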
